A study of Homo sapiens with 8 samples.

Results

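The 9 genes described here encode cell-surface and endosomal Toll-like receptors (TLR1, TLR2, TLR3, TLR4, TLR5 and TLR6) and the proteins that bring lipopolysaccharide (LPS) to TLR4 (LY96, CD14 and LBP). They were taken by symbol from tables of 26485 genes, in which all 9 were listed. The tables come from BEAS-2B, a virus-immortalised line of human bronchial epithelial cells, grown in BEGM and moved to BEBM 24 h before stimulation. Cells that had received control siRNA or siRNA against LY96 were then given PBS or house dust mite (HDM) extract and were harvested 24 h later. There were 3 libraries of control siRNA with HDM, 3 of LY96 siRNA with HDM, 1 of control siRNA with PBS and 1 of LY96 siRNA with PBS. The sources used here give neither the siRNA sequences nor the dose of the extract. The tables name no unit, and their values were taken to be FPKM, fragment counts scaled to transcript length and library size, so that levels can be set side by side between genes. Nothing in the labels says that the libraries of a group were separate cultures, so the p-values below measure the spread between libraries, which may be technical.

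Toll-like receptors recognise conserved microbial molecules and signal through adaptors such as MyD88 and TRIF to NF-kB and interferon regulatory factors. LBP, a secreted acute-phase protein, extracts LPS from aggregates, CD14 passes it on, and MD-2, the product of LY96, binds it in the pocket that TLR4 needs for dimerisation. TLR2 pairs with TLR1 or TLR6 to recognise bacterial lipopeptides, TLR3 senses double-stranded RNA in endosomes and TLR5 senses flagellin. In airway epithelium TLR4 and its co-receptors are known as a route by which HDM allergens and the endotoxin they carry start cytokine release.

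The sequences around the start sites of TLR2, TLR3 and CD14 are shown because these are the members that rose with HDM. RefSeq (GRCh38.p14) gave a 300-base window, 250 bases before the start site and 50 from it on, for 6 of the 9 members. Each window is set on a single start site. For TLR2, TLR3 and CD14 that site lies inside the GENCODE v29 gene span given below, for TLR3 only just inside it. Their matches are therefore counted for that start only. Capitals mark matches on either strand to a loose form of the NF-kB site (GGG and CC with any 5 bases between them) or to the core of the interferon regulatory factor (IRF) site (GAAA and GAAA with any 2 bases between them). The TLR2 window (chr4:153684030-153684329, + strand) held 7 matches to the first motif, overlapping ones and both strands counted, and 0 to the second. The TLR3 window (chr4:186068906-186069205, + strand) held 0 and 1, and the CD14 window (chr5:140633126-140633425, - strand) held 0 and 0.
TLR2: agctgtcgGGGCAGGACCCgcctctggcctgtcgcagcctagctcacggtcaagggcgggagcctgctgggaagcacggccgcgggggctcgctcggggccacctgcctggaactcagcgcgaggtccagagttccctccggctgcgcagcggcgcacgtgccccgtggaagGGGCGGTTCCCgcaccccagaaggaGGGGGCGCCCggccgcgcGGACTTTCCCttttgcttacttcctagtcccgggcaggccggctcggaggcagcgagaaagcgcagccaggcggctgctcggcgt
TLR3: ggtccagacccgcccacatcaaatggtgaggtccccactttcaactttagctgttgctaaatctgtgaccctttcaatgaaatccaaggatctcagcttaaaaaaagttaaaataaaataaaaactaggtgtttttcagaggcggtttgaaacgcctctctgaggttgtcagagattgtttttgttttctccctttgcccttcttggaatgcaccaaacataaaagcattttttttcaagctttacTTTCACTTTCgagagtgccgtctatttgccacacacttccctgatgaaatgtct
CD14: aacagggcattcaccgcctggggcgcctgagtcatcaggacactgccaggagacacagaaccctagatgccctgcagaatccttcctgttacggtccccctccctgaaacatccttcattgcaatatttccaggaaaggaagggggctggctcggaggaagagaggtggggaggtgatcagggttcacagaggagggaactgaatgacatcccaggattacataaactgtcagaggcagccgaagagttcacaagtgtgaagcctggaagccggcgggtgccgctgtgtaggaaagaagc
Of all 35116 windows in the table, 58.7% held the first motif and 3.57% the second, so that a match to the first is common. The TLR2 window was 72.7% G and C against 40.3% for TLR3 and 55.7% for CD14, and the first motif is itself rich in those bases. The single IRF match of TLR3, read on the opposite strand, lay across the start site. The TLR4 and TLR6 windows held 0 matches to either motif, and the TLR5 window held 7 to the first.

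Levels fell into 3 tiers that were the same in all 8 libraries. TLR4, CD14 and TLR3 lay between 3.44 and 5.80 FPKM, and their means over the 8 libraries were 4.42, 4.51 and 4.45. TLR2 lay between 0.455 and 1.83 FPKM, below those 3 and above the rest in each library. TLR6 (0.224 to 0.506 FPKM), TLR5 (0.257 to 0.371) and TLR1 (0.0844 to 0.201) were lower, LBP was above 0 in 1 library and LY96 in none. A mean of at least 1 FPKM was required for testing, so TLR4, CD14, TLR3 and TLR2 were tested and the other 5 members were not. TLR2 was below 1 FPKM in both PBS libraries (0.455 and 0.653), so it entered the HDM tests only through its HDM libraries. A gene this low with the reverse pattern would not have been tested. Counts of tested genes that rose or fell with HDM lean toward rises to that extent. Among genes above 0, the means of TLR4, CD14 and TLR3 were higher than those of 53.8%, 54.1% and 53.9% of genes, and that of TLR2 higher than 38.9%.

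**Figure D1:**
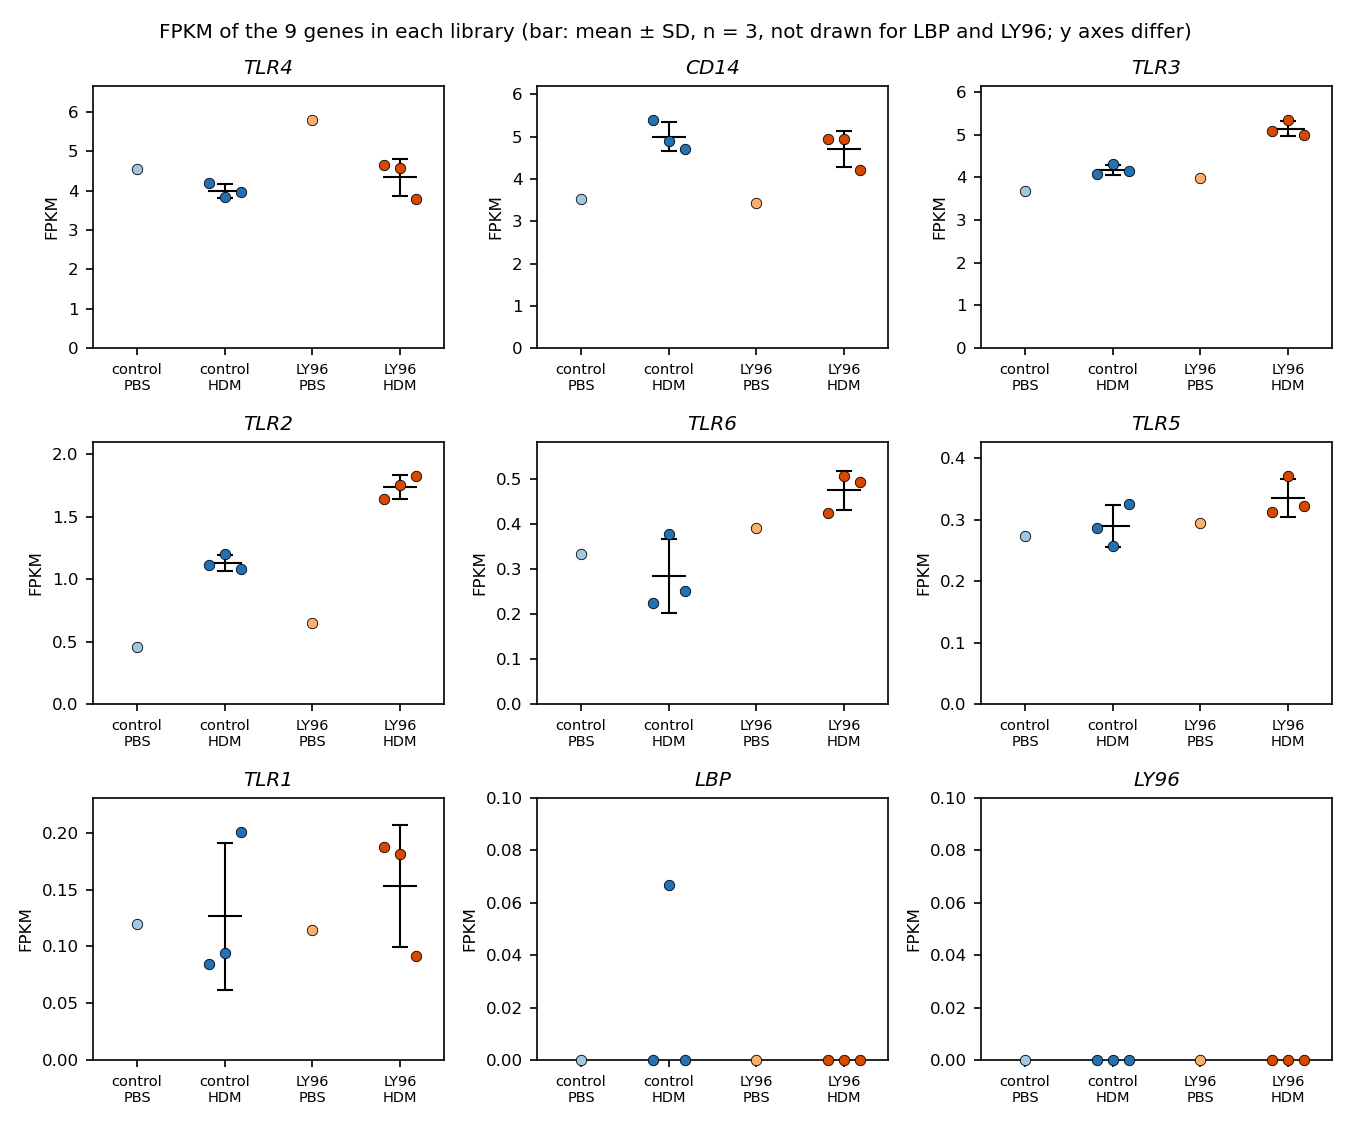
FPKM of each of the 9 genes (y axis, scale differs between panels) in the 8 libraries by group (x axis, siRNA and stimulus); points are libraries and bars the mean ± SD of the HDM groups (n = 3), not drawn for LBP and LY96. TLR2 rises with HDM under both siRNAs and is highest in the LY96 siRNA HDM libraries (1.64 to 1.83 FPKM), while LY96 lies at 0 throughout.

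The cells carried epithelial markers, with KRT5, KRT8, KRT14, KRT17, KRT18, KRT19, EPCAM, CDH1, KRT7 and TP63 all at a mean of 1 FPKM or more, and 3 of 13 such markers (the secretory, ciliated and goblet genes SCGB1A1, FOXJ1 and MUC5AC) at 0. Myeloid cells express several of the 9 genes strongly, so 12 myeloid markers were read. PTPRC, FCGR3A, CD163, AIF1 and TYROBP were at 0 in all libraries. The summed level of the 12 was 3.13 FPKM in the control siRNA PBS library, 3.33 to 3.89 in the control siRNA HDM libraries, 3.94 in the LY96 siRNA PBS library and 4.97 to 5.71 in the LY96 siRNA HDM libraries, most of it CD68, a lysosomal protein gene that is not limited to myeloid cells, with CSF1R at up to 0.379 FPKM and FCER1G at up to 0.436. The highest CSF1R value was in the LY96 siRNA PBS library and the highest FCER1G value in control siRNA HDM replicate 2. The share of summed FPKM listed for ribosomal RNA ran from 0.475% to 0.824% with control siRNA and HDM and from 1.03% to 1.31% with LY96 siRNA and HDM. It was 0.770% in the control siRNA PBS library and 0.826% in the LY96 siRNA PBS library. Under HDM both the CD68 level and the ribosomal RNA share thus differed between the siRNA groups, and their part in the siRNA differences below was not tested. As these are bulk samples, fewer cells expressing a gene and less RNA per cell cannot be told apart.

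LY96, the siRNA target, was listed at 0 FPKM in the control siRNA PBS library, in the 3 control siRNA HDM libraries, in the LY96 siRNA PBS library and in the 3 LY96 siRNA HDM libraries. The knockdown therefore could not be checked, and each LY96 siRNA group is named by its label. In GENCODE v29 (GRCh38) the gene is ENSG00000154589 on the + strand of chromosome 8, 73991352 to 74029087, with no annotated gene overlapping it. Of 18581 listed genes with a protein-coding GENCODE symbol, 16.4% were at 0 in all 8 libraries. The nearest listed protein-coding neighbours were above 0 throughout, TMEM70 at 7.85 to 9.70 FPKM on one side and JPH1 at 0.610 to 0.984 on the other. A listed 0 can also be a failed estimate, which these tables do not distinguish from absence of the transcript.

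LBP (ENSG00000129988, chromosome 20, 38346356 to 38377023) was at 0.0669 FPKM in control siRNA HDM replicate 2 and listed at 0 in the other 7 libraries. The carrier of LPS in serum was thus near or at 0 in every group.

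HDM raised 3 of the 4 tested members over both siRNAs, TLR2, CD14 and TLR3, and lowered 0. TLR2 was among the tested members only through its HDM values. Fits that left out 1 HDM library called between 2 and 3 members, as the call of TLR3 was often lost. The test (limma on log2(FPKM + 1), Benjamini-Hochberg adjusted p below 0.05) called 8.36% of 12604 genes in this comparison. All 6 HDM libraries lay above the PBS library of their siRNA for CD14, TLR2 and TLR3, as they did for 11.8% of the 20077 genes above 0 in a library. For TLR4 all 6 lay below it, as they did for 10.9% of those genes. Within control siRNA TLR2 was the 1 member called (2.28% of genes called, 288 in all, and 187 without control siRNA HDM replicate 2), and likewise within LY96 siRNA (4.90% of genes called). Of 6 fibroblast markers DCN and LUM were at 0 in all libraries, and the summed level of the 6 was lower with HDM, 22.9 FPKM with PBS against 16.02 to 17.05 with control siRNA and 25.7 against 16.9 to 19.0 with LY96 siRNA. PDGFRB, the receptor gene that made up much of the sum, was at 16.1 and 15.4 FPKM in the PBS libraries and at 9.39 to 10.8 in the HDM libraries, and the part of these markers in the HDM differences was not tested. Each siRNA had 1 PBS library, so these tests assume that PBS libraries vary as HDM libraries do.

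TLR4 (ENSG00000136869, chromosome 9, 117704175 to 117724730), the signalling receptor for LPS, was at 4.55 FPKM in the control siRNA PBS library and at 4.19, 3.84 and 3.96 in the control siRNA HDM libraries. It was at 5.80 FPKM in the LY96 siRNA PBS library and at 4.65, 4.57 and 3.80 in the LY96 siRNA HDM libraries. Each PBS library was higher than every HDM library of the same siRNA, and the 2 HDM groups overlapped. The HDM difference over both siRNAs was log2 -0.25 ± 0.07 SE (limma adjusted p = 0.0749), which missed the threshold. Ratios of mean FPKM, HDM over PBS, were 0.878 with control siRNA and 0.749 with LY96 siRNA. LY96 siRNA against control siRNA under HDM gave log2 0.09 ± 0.07 SE (limma adjusted p = 0.437, 95% confidence interval -0.08 to 0.26). In GENCODE a second gene model, AL160272.2, overlaps TLR4 on the same strand. Whether reads were divided between them is not known, since the annotation behind the values is not given.

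CD14 (ENSG00000170458, chromosome 5, 140631728 to 140633701), which hands LPS to the MD-2 and TLR4 complex, was at 3.53 FPKM in the control siRNA PBS library and at 5.39, 4.90 and 4.72 in the control siRNA HDM libraries. It was at 3.44 FPKM in the LY96 siRNA PBS library and at 4.96, 4.95 and 4.21 in the LY96 siRNA HDM libraries. Every HDM library was above both PBS libraries, and the siRNA groups overlapped under HDM. CD14 rose with HDM over both siRNAs by log2 0.38 ± 0.07 SE (limma adjusted p = 0.0132), or 1.42-fold with control siRNA and 1.37-fold with LY96 siRNA in mean FPKM. The single-siRNA tests had limma adjusted p = 0.0902 and 0.0990. Under HDM the siRNA difference was log2 -0.07 ± 0.07 SE (limma adjusted p = 0.526, 95% confidence interval -0.24 to 0.09), so neither a fall of that size nor a small rise can be told from 0.

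CD14 and TLR4 thus lay on opposite sides of their PBS libraries, though the fall of TLR4 was not called. The ratio of CD14 to TLR4 FPKM was 0.776 in the control siRNA PBS library and 1.29, 1.28 and 1.19 in the control siRNA HDM libraries. It was 0.593 in the LY96 siRNA PBS library and 1.07, 1.08 and 1.11 in the LY96 siRNA HDM libraries. TLR4 was the highest of the 9 members in both PBS libraries, CD14 in all 3 control siRNA HDM libraries and TLR3 in all 3 LY96 siRNA HDM libraries. With control siRNA and HDM the levels of TLR3 and TLR4 (4.18 ± 0.121 and 3.99 ± 0.178 FPKM, SD, n = 3) overlapped, and with LY96 siRNA and HDM those of CD14 and TLR4 (4.71 ± 0.430 and 4.34 ± 0.473 FPKM, SD, n = 3) did.

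**Figure D2:**
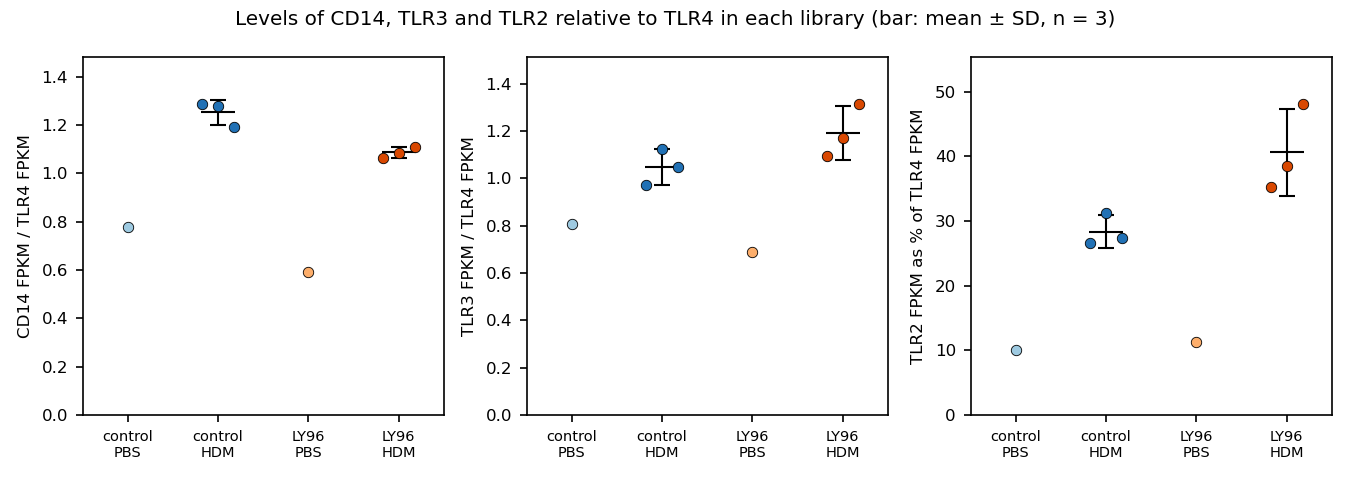
Ratio of CD14 to TLR4 FPKM, ratio of TLR3 to TLR4 FPKM and TLR2 FPKM as a percentage of TLR4 FPKM (y axes) in each library by group (x axes); points are libraries and bars the mean ± SD of the HDM groups (n = 3). All 3 quantities are lower in the 2 PBS libraries than in every HDM library, and TLR2 goes from 9.99% and 11.3% of TLR4 with PBS to between 26.5% and 48.1% with HDM. They share TLR4 as the denominator, so they are not 3 separate results, and they were not tested.

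TLR2 (ENSG00000137462, chromosome 4, 153684070 to 153705702), the lipopeptide receptor, showed the largest HDM and siRNA differences of the 4 tested members. It was at 0.455 FPKM in the control siRNA PBS library and at 1.11, 1.20 and 1.08 in the control siRNA HDM libraries. It was at 0.653 FPKM in the LY96 siRNA PBS library and at 1.64, 1.75 and 1.83 in the LY96 siRNA HDM libraries. The 4 groups did not overlap, and the order was control siRNA PBS, LY96 siRNA PBS, control siRNA HDM, LY96 siRNA HDM. TLR2 rose with HDM over both siRNAs by log2 0.64 ± 0.08 SE (limma adjusted p = 0.00156). The rise in mean FPKM was 2.48-fold with control siRNA (log2 0.55 ± 0.12 SE, limma adjusted p = 0.0475) and 2.66-fold with LY96 siRNA (log2 0.73 ± 0.12 SE, limma adjusted p = 0.00698). The log2(FPKM + 1) scale understates the change of a gene this low, and with a pseudocount of 0.1 the rise over both siRNAs was log2 1.22. The call with control siRNA was lost without any 1 of the 6 HDM libraries (limma adjusted p from 0.0636 to 0.120) and after quantile normalization (limma adjusted p = 0.113).

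TLR3 (ENSG00000164342, chromosome 4, 186069152 to 186088069), the double-stranded RNA sensor, was at 3.67 FPKM in the control siRNA PBS library and at 4.07, 4.31 and 4.14 in the control siRNA HDM libraries. It was at 3.99 FPKM in the LY96 siRNA PBS library and at 5.09, 5.34 and 4.99 in the LY96 siRNA HDM libraries. The LY96 siRNA HDM libraries stood above all others, while the LY96 siRNA PBS library lay just under the lowest control siRNA HDM library. TLR3 rose with HDM over both siRNAs by log2 0.22 ± 0.05 SE (limma adjusted p = 0.0378). That call was lost without control siRNA HDM replicate 1, 2 or 3 (limma adjusted p = 0.0544, 0.0808 and 0.0657) and without LY96 siRNA HDM replicate 1 or 2 (0.0669 and 0.0732). The ratio of mean FPKM was 1.14 with control siRNA (limma adjusted p = 0.400) and 1.29 with LY96 siRNA (limma adjusted p = 0.0662).

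Under HDM, TLR2 and TLR3 were higher with LY96 siRNA than with control siRNA, and 0 of the 4 tested members were lower. In this comparison limma called 15.6% of 12598 genes, 842 higher and 1124 lower (1068 higher and 878 lower after median-ratio scaling), under which TLR2 and TLR3 kept their calls and direction. The count of 1966 genes fell to 1119 without control siRNA HDM replicate 2 and to 1243 without control siRNA HDM replicate 3. The mean level of TLR2 went from 1.13 ± 0.0607 to 1.74 ± 0.0939 FPKM (SD, 3 libraries per group), a ratio of 1.54 (log2 0.36 ± 0.08 SE, limma adjusted p = 0.0155, and log2 0.58 with a pseudocount of 0.1). That of TLR3 went from 4.18 ± 0.121 to 5.14 ± 0.180 FPKM (SD, 3 libraries per group), a ratio of 1.23 (log2 0.25 ± 0.05 SE, limma adjusted p = 0.0169). Between the single PBS libraries the same ratios were 1.44 for TLR2 and 1.09 for TLR3, with no replicate check. The TLR2 call was lost without control siRNA HDM replicate 3 (limma adjusted p = 0.0508) or LY96 siRNA HDM replicate 3 (0.0506), and the TLR3 call without control siRNA HDM replicate 1 (0.0506) or LY96 siRNA HDM replicate 2 (0.0598). CD68 and the ribosomal RNA share were higher in the same 3 libraries, and several epithelial markers differed there as well.

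The HDM responses with the 2 siRNAs were also compared directly, by subtracting the control siRNA response from the LY96 siRNA response. Limma called 0 of the 4 members, 0 of which had an unadjusted p below 0.05, and 7 genes in all (0.0555% of 12604, with 956 genes at an unadjusted p below 0.05). Those 7 became 0, 3, 2, 33 and 4 without control siRNA HDM replicates 1 and 3 and LY96 siRNA HDM replicates 1, 2 and 3. The differences were log2 0.18 for TLR2 (95% confidence interval -0.19 to 0.55), 0.15 for TLR3 (-0.10 to 0.39), -0.04 for CD14 (-0.38 to 0.29) and -0.20 for TLR4 (-0.53 to 0.14). The limma adjusted p-values ran from 0.788 to 0.967, and the intervals are wide because each siRNA had 1 PBS library.

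**Figure D3:**
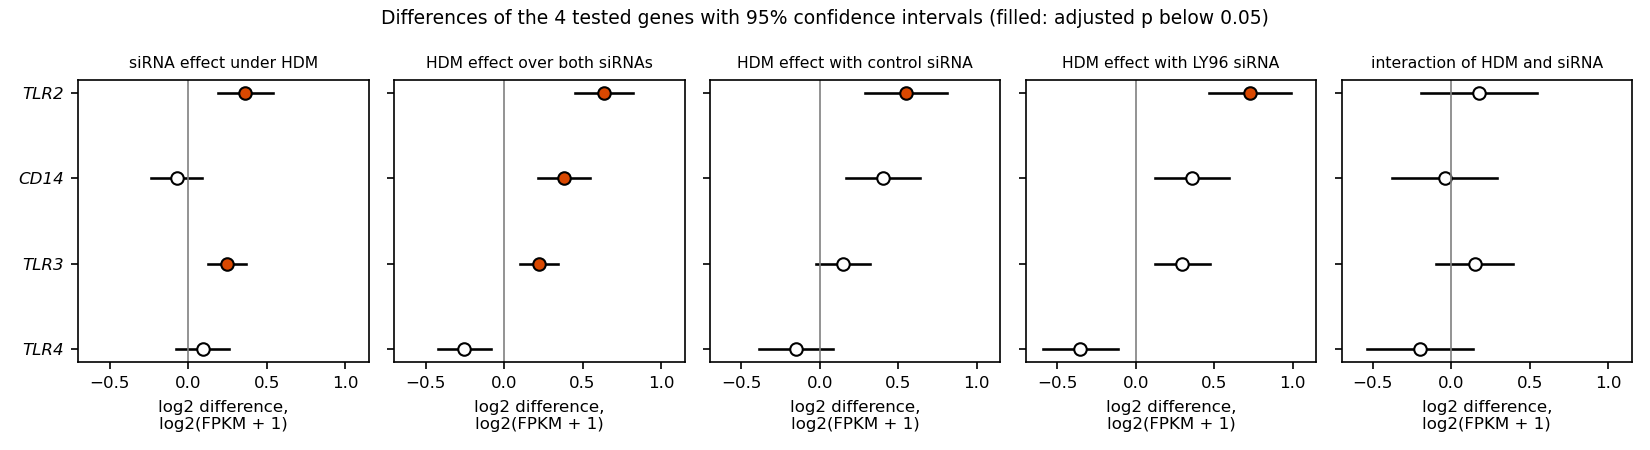
Log2 differences on the log2(FPKM + 1) scale (x axes) of the 4 tested genes (y axis) in the 5 comparisons (panels); points are limma estimates, lines their 95% confidence intervals, and filled points have an adjusted p below 0.05. TLR2 is filled in 4 panels, TLR3 in 2 and CD14 in 1, and no point is filled for the interaction.

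TLR6 and TLR1, the partners of TLR2, were below the level tested. TLR6 (ENSG00000174130, chromosome 4, 38823715 to 38856817) was at 0.333 FPKM in the control siRNA PBS library and at 0.224, 0.377 and 0.251 in the control siRNA HDM libraries. It was at 0.391 FPKM in the LY96 siRNA PBS library and at 0.424, 0.506 and 0.493 in the LY96 siRNA HDM libraries. All 3 LY96 siRNA HDM libraries were above all 3 control siRNA HDM libraries, as also for TLR2 and TLR3. That makes 3 of the 8 members above 0 in an HDM library, beside 11.5% of all 19700 such genes. The members were chosen with earlier results of these data known, so this share is no test. Without the low-value filter the siRNA difference of TLR6 was log2 0.20 ± 0.06 SE (limma adjusted p = 0.114), and its HDM difference was log2 0.01 (limma adjusted p = 0.951).

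TLR1 (ENSG00000174125, chromosome 4, 38790677 to 38856817) was at 0.119 FPKM in the control siRNA PBS library and at 0.0844, 0.0945 and 0.201 in the control siRNA HDM libraries. It was at 0.114 FPKM in the LY96 siRNA PBS library and at 0.188, 0.181 and 0.0914 in the LY96 siRNA HDM libraries. No group stood apart, and the HDM group means, 0.127 ± 0.0644 and 0.153 ± 0.0539 FPKM (SD, n = 3 each), differed by less than either SD. In GENCODE v29 the gene spans of TLR1 and TLR6, introns included, share 33103 bases on the same strand, the full span of TLR6. Of the 50-base words in TLR1 transcripts 5.33% also occur in TLR6 transcripts, and 4.10% of those in TLR6 transcripts occur in TLR1. Reads that lie within the shared words cannot be assigned to 1 gene by sequence alone, and both values are uncertain to that extent. The ratio of TLR2 to the sum of TLR1 and TLR6 was 1.005 and 1.29 in the PBS libraries and lay between 2.40 and 3.60 in the HDM libraries.

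TLR5 (ENSG00000187554, chromosome 1, 223109406 to 223143282), the flagellin receptor, was at 0.274 FPKM in the control siRNA PBS library and at 0.286, 0.257 and 0.325 in the control siRNA HDM libraries. It was at 0.295 FPKM in the LY96 siRNA PBS library and at 0.313, 0.371 and 0.323 in the LY96 siRNA HDM libraries. The groups overlapped, and without the low-value filter the HDM and siRNA differences were log2 0.03 and 0.05 (limma adjusted p = 0.812 and 0.581). TLR5 held 7 matches to the loose NF-kB motif in its start-site window, overlapping ones and both strands counted, the same number as TLR2. How many of all windows held as many is not given here.

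The other genes of the TLR pathway were read in 5 lists by role. Of 53 genes 40 were tested, and with HDM over both siRNAs 9 rose and 0 fell. Among all 12604 genes tested 613 rose and 441 fell (8.36% called). The lists were chosen with earlier results of these data known, so these counts are no test of the pathway. TLR7, TLR8, TLR10 and LY86, which encodes the MD-2 homologue MD-1, were listed at 0 in all libraries, and TLR9 did not exceed 0.0730 FPKM. Of the 4 tested family members and chaperones 1 rose, HSP90B1 (log2 0.21 ± 0.03 SE, limma adjusted p = 0.00525), the endoplasmic reticulum chaperone that folds TLRs. Of 5 tested LPS binders and sensors 2 rose, CASP4 (log2 0.34 ± 0.04 SE, limma adjusted p = 8.24e-04), which binds LPS in the cytosol, and CASP1 (0.19, limma adjusted p = 0.0341). The list medians were log2 0.05 and 0.17, beside 0.01 over all genes tested.

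Of 14 tested adaptors and proximal kinases 2 rose, the kinase gene IRAK2 (log2 0.73 ± 0.09 SE, limma adjusted p = 0.00114) and TRAF3 (0.42 ± 0.05, limma adjusted p = 7.61e-04), and the list median was log2 0.03. The adaptor MYD88 was between 13.3 and 15.8 FPKM in the 8 libraries and TICAM1, which encodes TRIF, between 6.31 and 7.79. Of the 8 genes of the IKK and IRF arms 1 rose, the kinase gene IKBKE (log2 0.96 ± 0.07 SE, limma adjusted p = 6.50e-05), with a list median of log2 0.01. Of 9 tested inhibitors 3 rose, the A20 gene TNFAIP3 (log2 1.10), the inactive kinase gene IRAK3 (0.30) and the deubiquitinase gene CYLD (0.20), with a list median of log2 0.07. Calls of CASP1, IRAK3 and CYLD were lost without single libraries. For CASP1 these were control siRNA HDM replicates 1 and 2 and LY96 siRNA HDM replicate 1 (limma adjusted p up to 0.0715), for IRAK3 control siRNA HDM replicates 2 and 3 and LY96 siRNA HDM replicate 1 (up to 0.0560), and for CYLD control siRNA HDM replicates 1 and 2 and LY96 siRNA HDM replicates 1 and 2 (up to 0.0612). CASP1 also lost its call without the low-value filter (limma adjusted p = 0.0743), after quantile normalization (0.0604) and with moderation that was not robust and followed no trend (0.0690). With a pseudocount of 0.1 the rise of IRAK2 was log2 1.31. IRAK2 was at 0.503 and 0.736 FPKM in the PBS libraries and, like TLR2, passed the filter only through its HDM libraries.

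With LY96 siRNA under HDM, 7 of the 40 genes were higher and 1 was lower, beside 842 higher and 1124 lower among all 12598 genes tested (15.6% called). The share of list genes called was near that background and is no result about the pathway. This comparison uses the same HDM libraries as the HDM effects, so the gene calls of the 2 are not independent. IRAK2 (log2 0.41 ± 0.08 SE, limma adjusted p = 0.0129), IKBKE (0.40 ± 0.07, limma adjusted p = 0.00713) and TNFAIP3 (0.41 ± 0.07, limma adjusted p = 0.00623) were higher. Under HDM the level of IRAK2 was 1.55, 1.27 and 1.17 FPKM in the control siRNA libraries and 2.11, 2.07 and 2.09 in the LY96 siRNA libraries, while the PBS libraries held 0.503 and 0.736. The HDM groups did not overlap. The other genes called were SCARB1 (log2 0.34), a scavenger receptor gene, LRRFIP1 (0.26), HSP90B1 (0.13) and IRAK3 (0.22), and UNC93B1 (-0.20), the chaperone that carries TLR3 to endosomes, was lower. LRRFIP1 stands in the inhibitor list but is known as a nucleic acid sensor. HSP90B1 lost its call without any 1 HDM library but LY96 siRNA HDM replicate 2 (limma adjusted p up to 0.0979), IRAK3 without any 1 HDM library (up to 0.141), and UNC93B1 without any 1 but LY96 siRNA HDM replicate 1 (up to 0.110) and after median-ratio scaling (0.0528). HSP90B1, IRAK3 and UNC93B1 also lost their calls without the low-value filter (limma adjusted p = 0.0694, 0.0646 and 0.0760). So did HSP90B1 and UNC93B1 with moderation that was not robust and followed no trend (0.0945 and 0.0616). IRAK3 did so with pseudocounts of 0.1 and 0.25 (0.0504 and 0.0502). The medians of the 5 lists ran from log2 0.01 to 0.08, beside -0.02 over all genes tested. The direct comparison of the HDM responses with limma called 0 of the 40, of which 5 had an unadjusted p below 0.05.

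**Figure D4:**
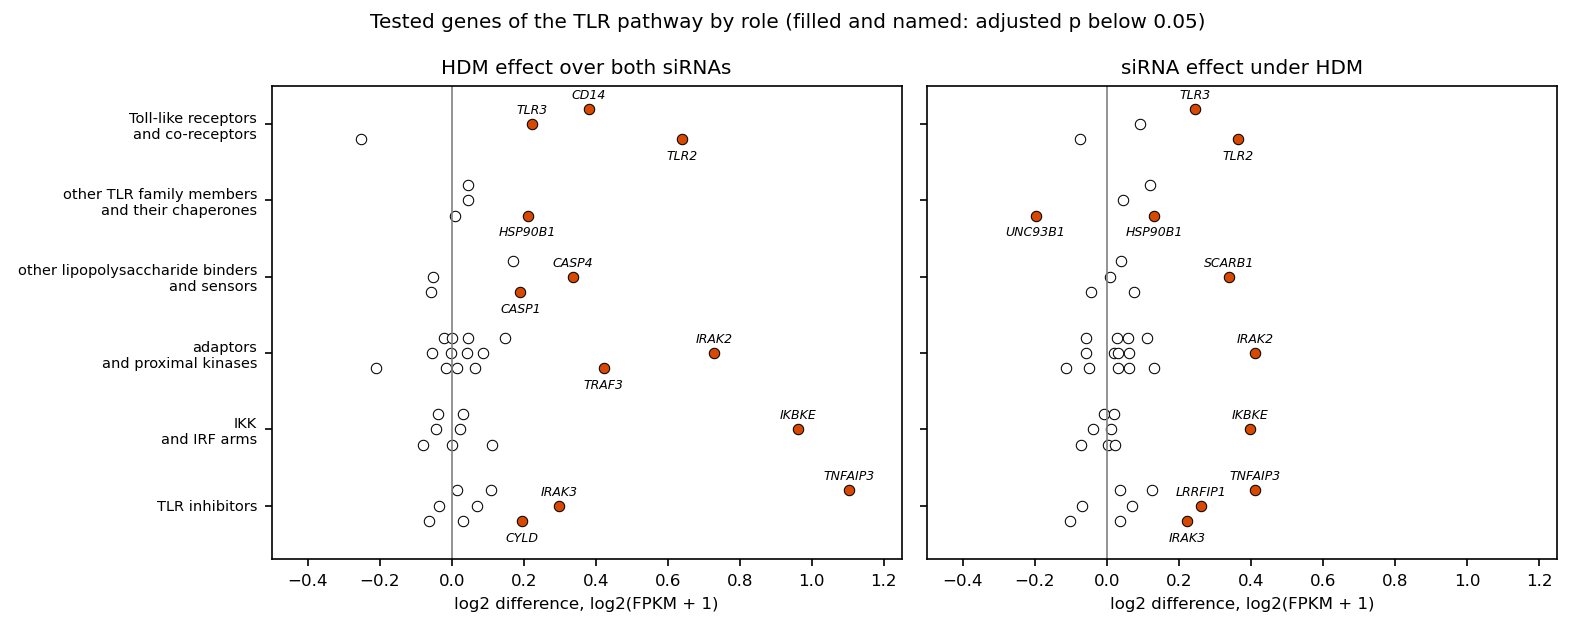
Log2 differences on the log2(FPKM + 1) scale (x axes) of the tested members and of the 40 tested pathway genes grouped by role (y axis), for HDM over both siRNAs and for LY96 siRNA under HDM; each point is 1 gene, and filled, named points have an adjusted p below 0.05. TNFAIP3 (log2 1.10) and IKBKE (0.96) lie farthest to the right in the HDM panel, and most adaptors and kinases sit near 0.

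The genes most like each tested member over the 8 libraries were found among 12603 others by Pearson correlation of log2(FPKM + 1), given as a description because the libraries fall into few groups. For TLR2 they were NFE2L1, CCL20 and NTN1 (r = 0.99 each), and for TLR3 they were IL1A, SLC7A1 and TARS (r = 0.99 each). CCL20, a dendritic cell chemokine gene, was at 0 and 0.137 FPKM in the PBS libraries, 1.45 to 1.89 with control siRNA and HDM and 4.93 to 5.96 with LY96 siRNA and HDM. It had the same order of groups as TLR2, but it was picked by its correlation with TLR2, so that order is no separate result. For TLR4 they were TBL1X, PAXIP1-AS1 and MET (r = 0.97, 0.97 and 0.96), and for CD14 they were TGFBR3, MPZL1 and IL17RA (r = 0.97, 0.97 and 0.96). Correlations of at least 0.95 were reached by 107 genes for TLR2 and 89 for TLR3, but by 11 for TLR4 and 8 for CD14.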

How the data were processed

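RNA of 8 BEAS-2B libraries in 4 groups was read from 1 table per library, and groups came from the titles in the labels. No header gives a unit. The authors' values were taken to be FPKM, since they are not whole and their totals differ between libraries (329777 to 340328), unlike counts, CPM or TPM. Per the submitters' processing notes the aligner was HISAT2 2.2.0 and the genome hg38. A quantifier or annotation is not given in the sources used here. Below 0.1 FPKM, ratios between libraries showed no repeated steps (commonest ratio at most 1.01% of genes), so whole reads could not be recovered and read depth is unknown. Members and gene lists were chosen with earlier results of these data known.

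Tests were run with limma 3.58.1 in R 4.3.3 on log2(FPKM + 1), moderated robustly along the mean-variance trend. Genes entered a fit where the fitted libraries averaged 1 FPKM or more. The siRNA effect used the 6 HDM libraries. The HDM effects and the interaction were contrasts of 1 model with 4 group means. Two-sided p-values were adjusted by the Benjamini-Hochberg method over every gene in the fit, and the threshold was 0.05. All 9 members are named; of each list, only genes past the threshold, at most the 4 with the smallest p (MYD88, TICAM1 and the genes at or near 0 were named after their values were seen); and, per tested member, the 3 most correlated genes. The fits were tested on simulated data with known rises of 2-fold and 4-fold on that scale, larger than any difference of the tested members. The simulation gave PBS libraries the spread of HDM libraries, so it does not cover smaller changes or the spread of PBS libraries. Coordinates are those of GENCODE v29. Alternatives were other pseudocounts (0.1 and 0.25), no filter, median-ratio and quantile scaling, plain moderation, an additive model, the replicate number as a block, and leaving out each HDM library.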

Additional observations from a re-analysis of the deposited data

How the results depend on the processing

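The HDM calls of TLR2 and CD14 over both siRNAs held under all 13 alternatives tried (log2 0.57 to 1.22 and 0.36 to 0.46), and TLR2 with LY96 siRNA under all 12 (log2 0.71 to 1.29). The HDM call of TLR3 over both siRNAs held in 8 of the 13 (log2 0.21 to 0.27). TLR4 stayed below 0 and uncalled under all 13 alternatives of the HDM effect (log2 -0.30 to -0.21, limma adjusted p from 0.0556 to 0.147). The siRNA calls of TLR2 and TLR3 under HDM held in 12 of 14 alternatives each. With control siRNA, members called by limma went from 1 to 0 after quantile normalization and to 0 in each leave-one-out fit, and genes called went from 288 to 180 with plain moderation and to between 187 (without control siRNA HDM replicate 2) and 329 in leave-one-out fits. With LY96 siRNA, members called went from 1 to 2 with plain moderation (TLR3 added) and to between 1 and 2 in leave-one-out fits (CD14 added without LY96 siRNA HDM replicate 3, limma adjusted p = 0.0475). For the siRNA effect, leave-one-out fits called between 1119 (without control siRNA HDM replicate 2) and 1369 genes and between 1 and 2 members. The 7 interaction calls became 20 without the low-value filter, 14 after quantile normalization, 0 with plain moderation and between 0 and 33 in leave-one-out fits; the interaction of CD14 changed from log2 -0.04 to 0.00 without control siRNA HDM replicate 1 and to 0.02 without LY96 siRNA HDM replicate 3, within a leave-one-out range of -0.08 to 0.02. Apart from the loss of 1 library's information in leave-one-out fits, the cause was not tested.

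The replicate numbers did not pair the HDM libraries: deviations of same-numbered libraries correlated at 0.048, -0.016 and -0.016, and those of other pairs at -0.028 to 0.039, so that not every library correlated best with its own number. With the replicate number as a block, 1635 genes were called for the siRNA effect in place of 1966, and TLR2 and TLR3 kept their calls (limma adjusted p = 0.0388 and 0.0345), while UNC93B1 (0.0693) and IRAK3 (0.0767) did not pass. Read depth is unknown, so no limit can be given for members listed at or near 0.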
